A study of Sus scrofa with 12 samples.

Results

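Skeletal muscle of pigs on day 7 of life was compared with muscle of newborn pigs, taken within a day of birth (day 0). The comparison rests on 6 of the 12 arrays of the study, the 3 arrays of each of these ages, and the other 6 arrays (days 14 and 21, 3 each) entered the estimate of the spread between samples and the filter on dim probe sets. Each array held RNA from 1 muscle sample, labelled as a biological replicate, on an Affymetrix porcine chip, where short probes in groups called probe sets each read 1 transcript. The labels give no treatment, and the breed, the sex and the name of the muscle are not given in the sources used here. Nothing in the labels says that the replicates came from different litters, so the p-values measure the spread between these samples.

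A newborn piglet's muscle changes from fetal growth on maternal glucose to load-bearing work fed by milk. In the weeks after birth, protein is laid down faster than at any later age, fibres take on adult isoforms of the contractile proteins, new nuclei join the fibres from dividing satellite cells, and enzymes of glycogen and glucose use build up. Making protein at that rate needs ribosomes, which are assembled in the nucleolus, transfer RNAs charged by synthetases, chaperones that fold the products and proteasomes that degrade them.

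Values below are signals as deposited, in linear units after the authors' scaling, and changes are log2 differences of the day 7 mean minus the day 0 mean ± SE (n = 3 arrays per age). A probe set or gene is said to have risen or fallen where the limma adjusted p was under 0.05 over all 14399 probe sets tested. The arrays are written N1, N2 and N3 for the newborn (day 0) replicates 1 to 3 and W1, W2 and W3 for those of day 7. A call is said to hold where it passed in each of the 6 fits that left out 1 of these arrays, and otherwise the arrays without which it was lost are given with the lowest and highest adjusted p of those fits. The number of arrays limits the precision. A signal is called dim where it lies under 90.3, the limit of the filter on the mean over all 12 arrays, and for a gene with dim signals at its lower age a fold is also given as at least N-fold, with those signals raised to the limit. Genes were grouped into lists by function, chosen with earlier results of these data known, and each list is described by its counts and the share of its genes called, to be read beside the 11.7% called over all genes. Some genes are in several lists, and differences between lists were not tested.

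The labelled tissue carried its markers. Of 14 skeletal muscle markers, 11 had a named probe set and all 11 passed the filter on dim probe sets, with a summed signal of 262723 to 380020 at day 0 and 385096 to 440189 at day 7. The filter removed 10 of 14 lymphocyte markers, among them CD3D, CD3E, CD3G, CD4 and CD8A. Of 4 cartilage and tendon markers it removed ACAN and SOX9 and kept COL2A1 and COMP, of which COMP read 350, 17.5 and 936 at day 0 and 14.5, 23 and 268 at day 7. Of 13 liver markers it removed 9, ALB and TTR among them, and kept APOA1, TF, AHSG and SERPINA1. APOA1, an apolipoprotein, read 5189, 2462 and 1430 and then 3022, 2366 and 1820, and SERPINA1, a plasma protease inhibitor, rose by 1.18 ± 0.35, lost in every fit but that without N1 (0.0713 to 0.168) and on the control scale explained below. The fat cell list kept 9 of 12 genes, with ADIPOQ removed and no call. Day 7 arrays correlated with each other at a median of 0.954 and day 0 arrays at 0.918. N3 stood nearest to day 7, at a median correlation of 0.919 against 0.887 and 0.89 for N1 and N2. Spiked-in poly-A RNAs, which gauge how complete the labelling was, gave 3' over 5' log2 ratios (the spike ratio) of 0.52, 1.49 and 0.51 in N1, N2 and N3 and of 0.18, 0.25 and 0.32 in W1, W2 and W3. The hybridization controls were brighter at day 7 by 0.31 and the 28S ribosomal RNA probe sets by 1.09. Each of these 3 measures had an exact two-sided permutation p of 0.1, the smallest that 3 against 3 arrays allow.

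Between birth and day 7, 1353 probe sets (9.4% of those tested) changed, 829 upward and 524 downward in limma. Over the 5296 named genes, 621 (11.7%) changed, 345 upward (6.51%) and 276 downward (5.21%), and 294 (5.55%) did so by at least 2-fold. The median rise was 2.17-fold with 47 genes at 4-fold or more, and the median fall was 1.83-fold with 5 such genes. These folds take dim signals as read. In 12 of the rises and 1 of the falls every array of the lower age was dim, which leaves only a bound on the fold. Of the genes tested, 71 had a mean under the filter limit over the 6 arrays compared. They were tested because of days 14 and 21. Among them 8 rose (ANKRD37, CCL5, CDKN2C, CENPF, NDC80, RGS4, SMAGP and TMEM132A) and 0 fell. The 3 signals of one age lay wholly outside those of the other in 1710 genes (32.3%). Among called genes this was so in 343 of the 345 rises and 275 of the 276 falls. The count of probe sets called was 991, 728 and 1669 without N1, N2 and N3, and 528, 493 and 569 without W1, W2 and W3. Calls held in 114 of the 345 rising genes and 61 of the 276 falling ones. With the spike ratio as a covariate, 71 of the rises and 26 of the falls were still called. The deposited scaling gives every array the same trimmed mean, so a change in total RNA would not show. With arrays set level on the hybridization controls (the control scale), the median probe set moved by -0.31. The calls became 358 higher and 1636 lower of 14399 probe sets, and list counts on that scale are to be read beside these. There 150 of the 345 rises and 276 of the 276 falls kept their call.

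**Figure D1:**
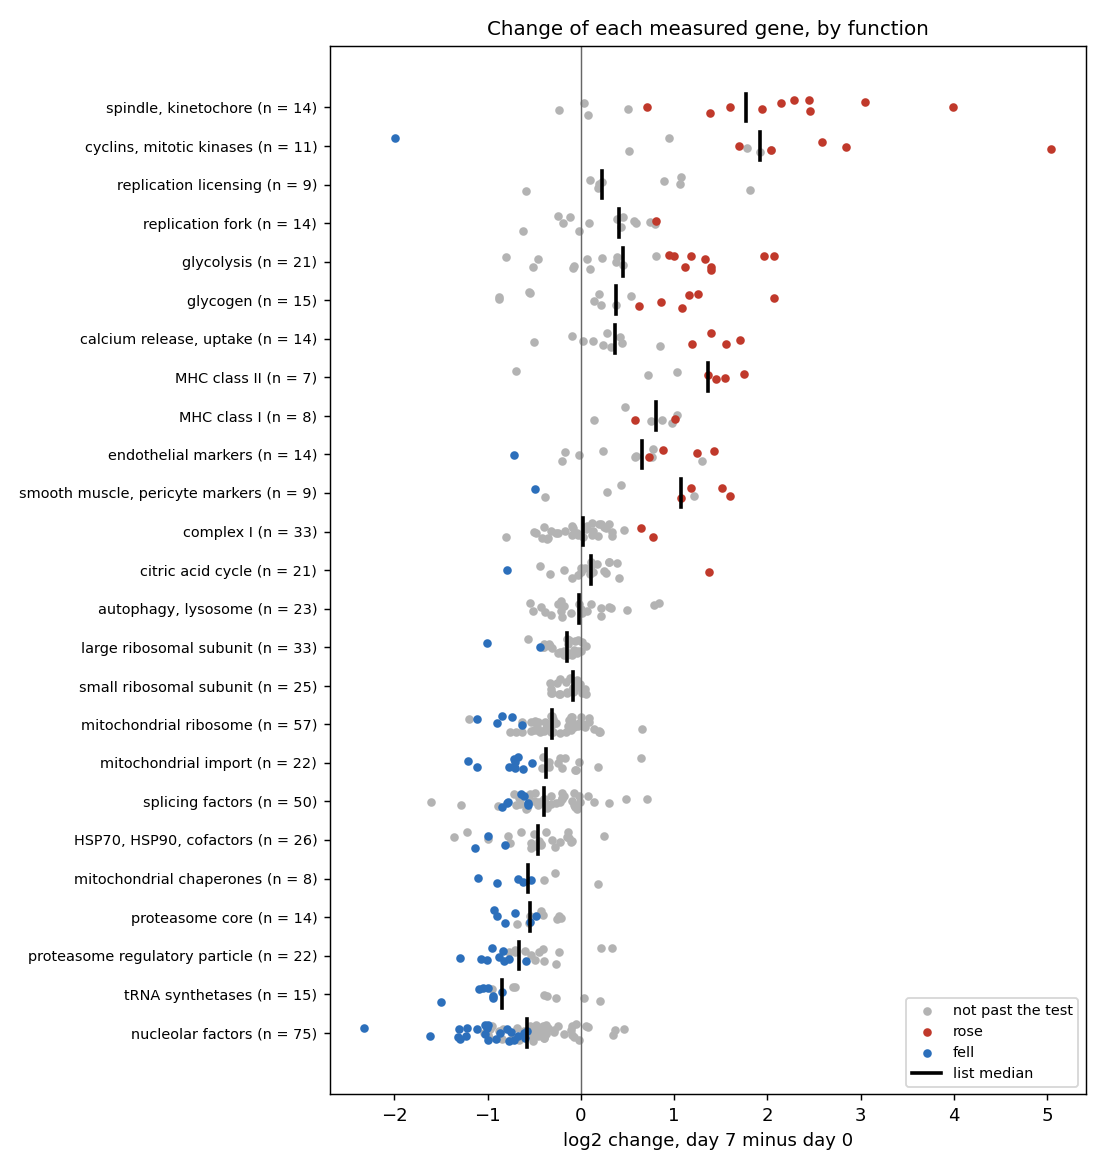
Log2 change from day 0 to day 7 of each measured gene (points), in 25 lists by function or cell type, with n genes per list and the list median as a black bar; red points rose and blue points fell in limma. Nucleolar factors, synthetases, proteasome subunits and chaperones lie to the left and mitotic genes to the right. The medians of complex I, the citric acid cycle and replication licensing, positive here, turn to -0.29, -0.20 and -0.08 on the control scale.

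Genes that build ribosomes were lower at day 7. Of 75 measured nucleolar factors, which cut and modify ribosomal RNA and put ribosomal proteins on it, 70 were lower at day 7, 23 fell (30.7%, beside 11.7% of all genes) and 0 rose, with a median change of -0.58 against -0.04 over all genes. UTP11, a part of the complex that processes the small subunit's RNA, had signals of 2653, 3203 and 2632 at day 0 and of 960, 1064 and 1420 at day 7. Every day 0 array lay above every day 7 array, and the gene fell by 1.32 ± 0.21 (adjusted p = 0.00356). PWP2, of the same complex, went from 456, 310 and 318 to 130, 42.8 and 65.1 (fell by 2.32 ± 0.41, at least 3.49-fold), where 2 of the 3 later arrays were dim. NOP16, an assembly factor of the large subunit, went from 2117, 1454 and 1404 to 815, 790 and 822 (fell by 1.01 ± 0.19). These 3 calls held, as did those on MYBBP1A, a nucleolar repressor, and GPATCH4.

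The fall of the nucleolar list was uneven over the newborn arrays. Its members stood at a median of 0.80, 0.23 and -0.02 in the 3 day 0 arrays, relative to each gene's mean over the 6 arrays, and at -0.28, -0.29 and -0.34 at day 7. N1 was far above the rest, and N3 was the nearest to day 7. The count of 23 became 6, 10 and 31 without N1, N2 and N3, and 6, 6 and 5 without W1, W2 and W3. It was 3 with the spike ratio as a covariate, where the median was -0.79, and 39 on the control scale, where the median was -0.89.

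Genes that charge transfer RNAs were lower too. Of 15 aminoacyl-tRNA synthetase genes, 7 fell (46.7%; EPRS, FARSA, FARSB, LARS, NARS, VARS and WARS) and 0 rose, with a median of -0.85. FARSA and FARSB make the 2 subunits of the phenylalanine enzyme. FARSA read 3556, 3230 and 2472 at day 0 and 1531, 1401 and 1371 at day 7 (fell by 1.09 ± 0.18, adjusted p = 0.0038), and FARSB 4392, 6035 and 3528 and then 1917, 2446 and 2266 (fell by 1.05 ± 0.20). VARS, the valine enzyme, went from 1228, 2016 and 903 to 547, 483 and 372 (fell by 1.5 ± 0.26). In all 3 genes the ages did not overlap and the calls held. The count was 5, 4 and 9 without N1, N2 and N3, and 4, 4 and 5 without W1, W2 and W3. No synthetase stayed called with the spike covariate, and the median was then -0.53.

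The other translation lists had shares called below the 11.7% of all genes. Of 34 initiation factor genes 2 fell (5.88%). EIF4G1, the scaffold that brings messenger RNA to the ribosome, fell by 0.79 ± 0.17, a call lost without W2 (adjusted p = 0.0601). EIF3D fell by 0.83 ± 0.22, a call lost without N1, N2, W2 or W3 (0.0785 to 0.138). None of 9 elongation and release factors passed, and AIMP2, a scaffold of the synthetases, had the lowest p (-0.51 ± 0.18, adjusted p = 0.0882). Of 33 proteins of the large ribosomal subunit 2 fell (6.06%), RPL3 (fell by 1.01 ± 0.18, held) and RPL4 (fell by 0.44 ± 0.12, lost in every fit but that without N1, 0.0538 to 0.133). Of 25 small subunit proteins 0 passed, with RPS18 nearest (-0.31 ± 0.11, adjusted p = 0.0958), and the medians of the large and small subunit lists were -0.15 and -0.08. On the control scale 23 of 33 and 17 of 25 of these ribosomal protein genes fell, beside 39 of 75 nucleolar factors, with medians of -0.46 and -0.39. Over all 14399 probe sets 1636 fell on that scale and the median was -0.31, so these counts include that common shift. RNA polymerases I and III had 1 fall among 10 genes (10%), POLR3D (fell by 0.89 ± 0.26), lost in every fit but that without N3 (0.0717 to 0.134). SRM and ODC1, which make the polyamines, were the falls among 11 genes of polyamine metabolism (18.2%). SRM went from 1659, 2126 and 784 to 357, 347 and 308 and its call held. ODC1 went from 3061, 1863 and 1676 to 967, 1098 and 1052 (fell by 1.03 ± 0.24), lost without W1, W2 or W3 (0.0559 to 0.0709).

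Proteasome genes were lower at day 7 in both parts of the particle. Of 14 genes of the core, where proteins are cut, 14 were lower and 6 fell (42.9%), and of 22 genes of the regulatory particle and its assembly 20 were lower and 9 fell (40.9%, beside 11.7% of all genes), with medians of -0.55 and -0.66. PSMD3, a subunit of the regulatory lid, had signals of 3782, 3189 and 2062 at day 0 and 1133, 1244 and 1213 at day 7 (fell by 1.29 ± 0.20, adjusted p = 0.00272). PSMB7, a catalytic core subunit, went from 5982, 9731 and 7119 to 3868, 3921 and 3965 (fell by 0.93 ± 0.18). PSMD1, PSMD13 and PSMB2 fell by 0.83 ± 0.16, 0.95 ± 0.18 and 0.90 ± 0.18. The day 7 arrays were tightly grouped in all 5 genes, the day 0 arrays were spread above them, and the 5 calls held. PSMB4 fell by 0.71 ± 0.16, lost without W2 or W3 (0.0579 and 0.0604). The 4 immunoproteasome genes, which replace core subunits under interferon, were all higher, with a median of 0.39 (0.09 on the control scale), and none passed. PSMB8 among them read 151, 324 and 259 and then 796, 488 and 391 (1.19 ± 0.39, adjusted p = 0.0704).

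Without N1, N2 and N3 the core list had 4, 3 and 10 falls and the regulatory list 5, 4 and 13. Leaving out the day 7 arrays gave 3, 2 and 2 falls in the core and 3, 3 and 3 in the regulatory list. With the spike covariate 0 and 1 were called. The lists of muscle ubiquitin ligases and of autophagy and lysosomes gave no call, and genes of protein breakdown outside the lists were not counted. None of 5 muscle ubiquitin ligase genes passed, at changes of -0.37 to 0.81 and a median of -0.05, with FBXO21 lowest in p (-0.37 ± 0.29, adjusted p = 0.454). None of 23 genes of autophagy and lysosomes passed, at changes of -0.55 to 0.84 and a median of -0.02, beside 11.7% of all genes called. GABARAPL2, which takes part in building autophagosomes, read 2482, 3159 and 3032 at day 0 and 3550, 4524 and 4146 at day 7, without overlap (0.50 ± 0.16, adjusted p = 0.0676). With 1 array left out, up to 1 autophagy gene rose and up to 2 fell.

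Of 70 chaperone genes over all compartments 61 were lower and 16 fell (22.9%, beside 11.7% of all genes called). Among 26 genes of cytosolic HSP70 and HSP90 with their cofactors 25 were lower and 3 fell, a share of 11.5%, about that of all genes. FKBP4, a partner of HSP90 at steroid receptors, went from 3109, 2573 and 1753 to 1060, 1186 and 1063 (fell by 1.13 ± 0.19, held). HSF1, the transcription factor of the heat shock response, went from 718, 794 and 571 to 267, 373 and 412 (fell by 1 ± 0.23), lost without N2, W1 or W2 (0.0519 to 0.0826). BAG3, which couples HSP70 to autophagy, fell by 0.81 ± 0.24, lost in every fit but that without N3 (0.0607 to 0.168). All 3 genes had day 0 arrays wholly above day 7. The count of 3 became 3, 1 and 11 without N1, N2 and N3, and 1, 1 and 2 without W1, W2 and W3.

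TRiC, the chamber that folds actin and tubulin, had 3 falls among 11 genes with prefoldin (27.3%). Its subunit TCP1 went from 8398, 7255 and 5169 to 3533, 3687 and 3520 (fell by 0.93 ± 0.18, held), while CCT8 and CCT7 fell by 1.02 ± 0.23 and 0.77 ± 0.19, lost in every fit but that without N3 (0.0501 to 0.0847), and the list had 6 falls without N3. In the small heat shock family HSPB7 and CRYAB fell, 2 of 7 genes (28.6%). HSPB7, made in heart and skeletal muscle, went from 11202, 9192 and 4977 to 1411, 2022 and 1050. CRYAB, alpha-B crystallin, which protects desmin and titin, went from 31178, 25975 and 18814 to 7884, 11592 and 8760 (fell by 1.42 ± 0.25). Both calls held and the ages lay apart. Among 18 chaperones of the endoplasmic reticulum 3 fell (16.7%). HYOU1 went from 722, 950 and 719 to 321, 361 and 425 (fell by 1.11 ± 0.21, held). MANF fell by 0.86 ± 0.19, lost without W2 (0.07), and HSP90B1 by 0.90 ± 0.25, lost in every fit but that without N3 (0.0623 to 0.131). The list had 1 fall without W2.

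**Figure D2:**
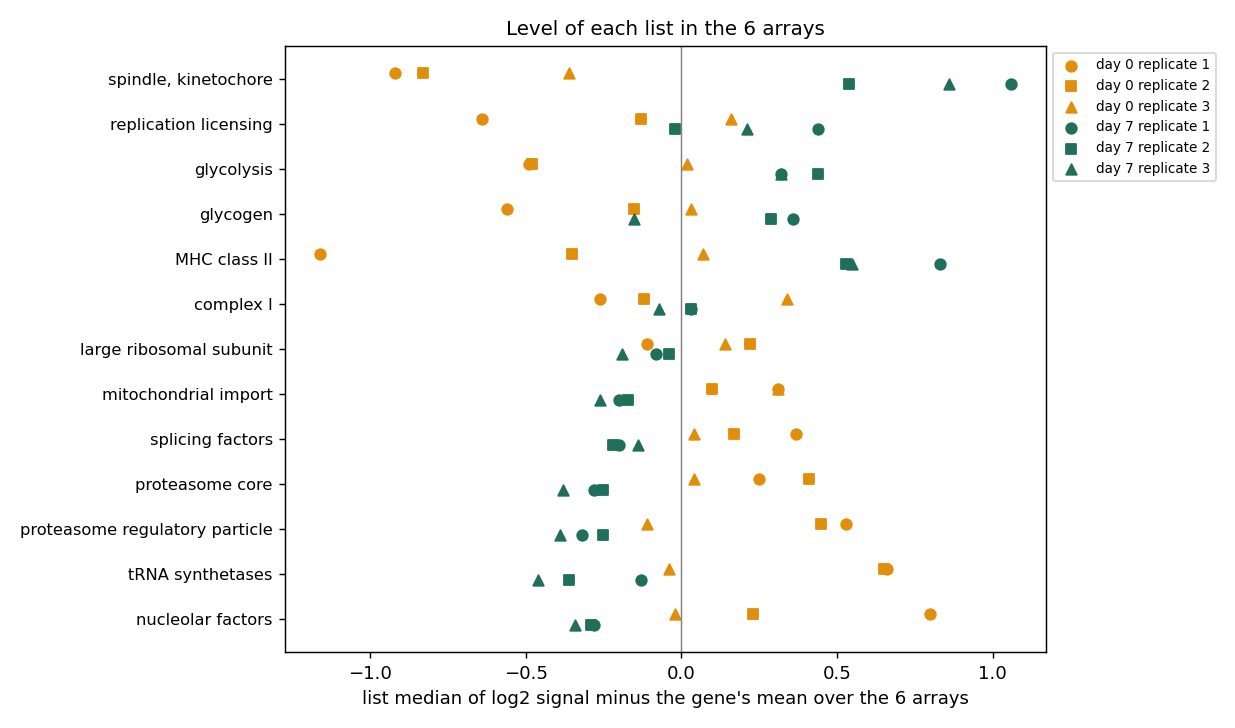
Median over the members of each list of the log2 signal minus the gene's mean over the 6 arrays (x axis), for day 0 (orange) and day 7 (green) and replicates 1 (circle), 2 (square) and 3 (triangle). N3 lies nearest to day 7 in the nucleolar list, at -0.02 against 0.80 and 0.23. The glycogen, replication licensing, complex I and large ribosomal subunit lists overlap between the ages.

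Genes that bring proteins into mitochondria were lower at day 7. Of 22 import genes, 20 were lower and 9 fell (40.9%, beside 11.7% of all genes), at a median of -0.37, and 0 were called without W3. The list also holds TUFM, an elongation factor of mitochondrial translation, which is 1 of the 9 falls. Within the TIMM family of inner membrane translocases, 7 of 11 measured genes fell. TIMM8A went from 3593, 1765 and 3085 to 1254, 1377 and 1122 (fell by 1.11 ± 0.23), and TIMM44, which ties the import motor to the channel, from 817, 570 and 1141 to 378, 419 and 270 (fell by 1.21 ± 0.26). TIMM22 read 570, 582 and 561 and then 351, 360 and 339 (fell by 0.71 ± 0.17). N3 stood with the other newborn arrays in this list, at 0.31 against 0.31 and 0.10. No import call held all the same, while the list median stayed between -0.56 and -0.31 with 1 array left out. TIMM8A and TIMM44 were lost without W3 (0.0525 and 0.0591), and TIMM22 without N2, W1, W2 or W3 (0.0575 to 0.0744). The count of 9 became 7, 5 and 9 without N1, N2 and N3, and 4, 2 and 0 without W1, W2 and W3. With the spike covariate 2 import genes were called, TIMM8A and TIMM44 among those named here.

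The mitochondrial chaperones had 5 falls among 8 genes (62.5%). HSPA9, the motor that pulls proteins through the inner membrane, went from 16353, 15139 and 12632 to 6400, 6834 and 7198 (fell by 1.10 ± 0.13, adjusted p = 0.000982). HSPD1, the folding chamber, went from 16945, 14129 and 11642 to 6511, 8811 and 7498 (fell by 0.90 ± 0.16). Both calls held, and that on HSPA9 also passed with the spike covariate. LONP1, a matrix protease, fell by 0.67 ± 0.16, lost without N2, W1, W2 or W3 (0.0567 to 0.101). Of 57 mitochondrial ribosome genes 47 were lower and 5 fell (8.77%, under the 11.7% of all genes), at a median of -0.31. The chaperone count was 3 without N1 or N2, and 2 without W1, W2 or W3, and the ribosome count 3 without N2, 2 without W1 or W2 and 1 without W3. MRPS7 went from 493, 570 and 690 to 303, 246 and 257 (fell by 1.11 ± 0.21, held). MRPS27 and MRPL15 fell by 0.85 ± 0.17 and 0.63 ± 0.14. The first was lost without W3 (0.0541) and the second without W1, W2 or W3 (0.0525 to 0.0588).

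Of 57 genes of oxidative phosphorylation 4 rose and 0 fell (7.02%, under the 11.7% of all genes). Complex I had 2 rises among 33 genes (6.06%) at a median of 0.02, and the citric acid cycle 1 rise and 1 fall among 21 (9.52%). Complex III gave 0 calls among 3 genes and complex V 0 among 14, with UQCR10 (0.33 ± 0.19, adjusted p = 0.292) and ATP5I (-0.96 ± 0.32, adjusted p = 0.0753) lowest in p. Complex IV had 2 rises among 7 genes (28.6%). On the control scale the medians of complex I and the cycle turned to -0.29 and -0.20, with 7 and 4 falls. COX8H, a muscle-type subunit of complex IV, went from 13340, 8303 and 13079 to 25226, 22703 and 20736 (rose by 1.01 ± 0.19) and held. COX7A1, the other muscle-type subunit called, rose by 0.78 ± 0.18, lost without N2, W1 or W2 (0.0677 to 0.0804) and on the control scale. NDUFB1 and NDUFA3 of complex I rose by 0.77 ± 0.18 and 0.64 ± 0.18. Both were lost on that scale and without N1, N2, W1 or W2 (0.0524 to 0.154). IDH3B, of the cycle, fell by 0.79 ± 0.19, lost without N2, W1 or W3 (0.0572 to 0.090). PC, pyruvate carboxylase, rose by 1.37 ± 0.34 (at least 2.3-fold, dim in 1 newborn array), lost without N2, W1 or W2 (0.0676 to 0.0981) and on the control scale.

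Of 77 RNA processing genes 68 were lower and 9 fell, and that share called (11.7%) is the share over all genes. Of 50 splicing factors 45 were lower and 7 fell (14%), at a median of -0.40, and of 27 hnRNPs and muscle RNA-binding proteins 23 were lower and 2 fell (7.41%). RBM3, a protein induced by cooling that binds messenger RNA, stood out in the second list. It went from 6699, 6101 and 7818 to 2894, 2446 and 2894 (fell by 1.32 ± 0.21, adjusted p = 0.0033), held, and passed with the spike covariate. HNRNPM fell by 0.75 ± 0.18, lost without N1, W1, W2 or W3 (0.0511 to 0.085). The splicing factors SNRPA, DDX39B and SRSF4 fell by 0.78 ± 0.18, 0.79 ± 0.20 and 0.57 ± 0.15, and no call in that list held. SNRPA was lost without N2, W2 or W3, DDX39B without N2, N3, W1 or W3, and SRSF4 in every fit but that without N3 (0.0511 to 0.115 over the 3 genes). The splicing count was 3, 1 and 11 without N1, N2 and N3 and 1, 1 and 1 without W1, W2 and W3. Of 62 genes of vesicle traffic 4 fell and 1 rose (8.06%, under the 11.7% of all genes). CLTC, the clathrin heavy chain, went from 3232, 2781 and 3118 to 1596, 1174 and 1326 (fell by 1.17 ± 0.17) and held, also with the spike covariate. A second probe set of CLTC was at -0.16 and not called. TMED7 fell by 1.02 ± 0.22, lost without W1 or W2 (0.0534 and 0.0611), and COPZ1 by 0.65 ± 0.14, lost without W1 or W3 (0.0561 and 0.0566). The count of 4 was 1 without W1 and 2 without W3.

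**Figure D3:**
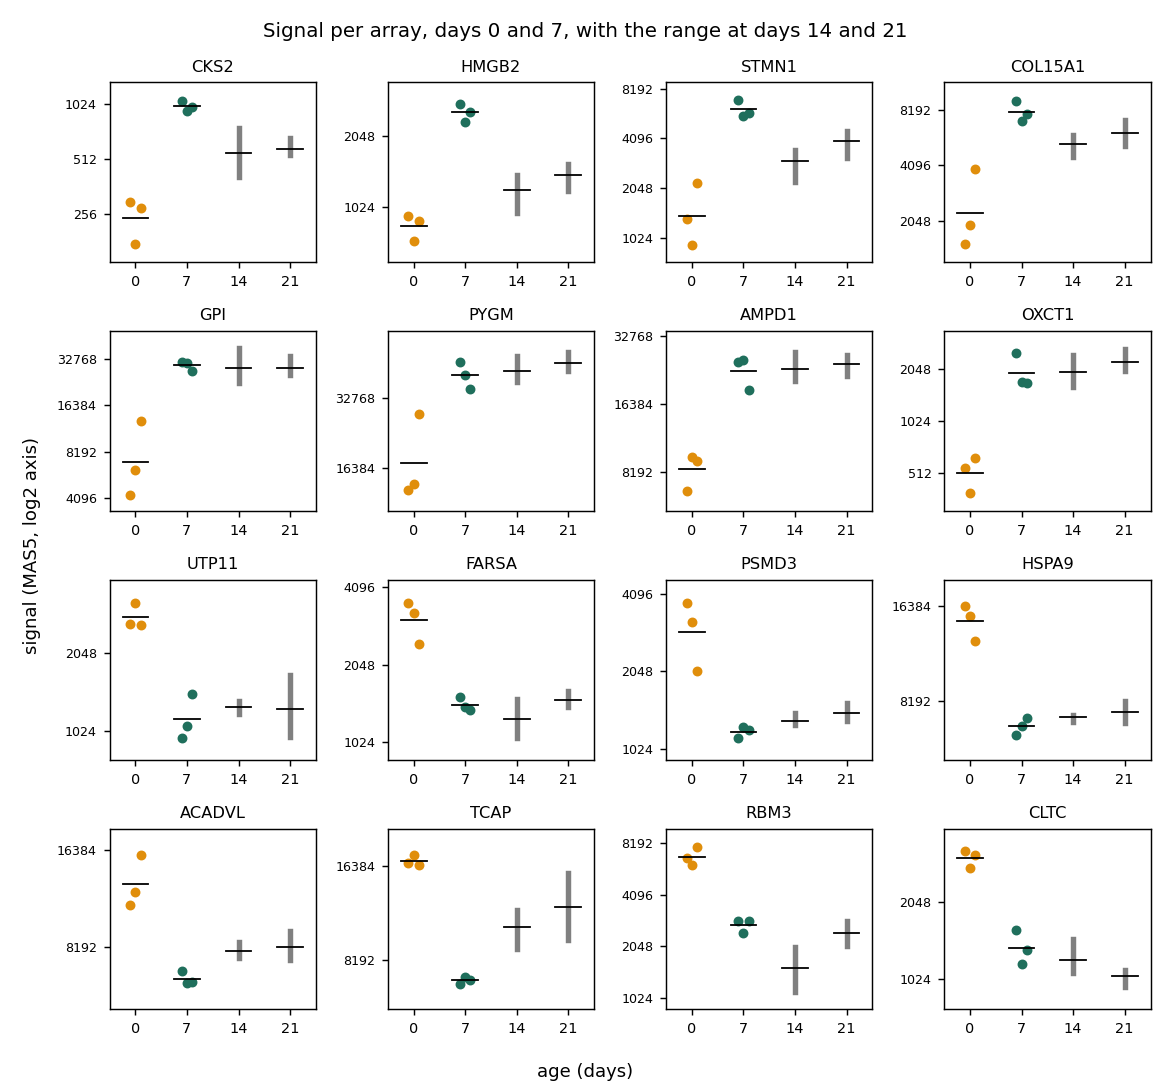
Signal (MAS5, log2 axis) of 16 genes by age: orange and green points are the 3 arrays of day 0 and of day 7, grey bars run from the lowest to the highest array at days 14 and 21, and black lines are geometric means of 3 arrays. The 16 genes were picked among those called. Their day 0 and day 7 arrays do not overlap, as in 343 of the 345 rises, 275 of the 276 falls and 32.3% of all genes. UTP11, for example, read 2653, 3203 and 2632 against 960, 1064 and 1420.

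Of 25 mitotic genes 15 rose and 1 fell, and no gene that licenses DNA for replication passed the test. Of 14 genes of the spindle, the kinetochore and mitotic chromosomes 10 rose (71.4%, beside 11.7% of all genes called), and of 11 cyclins, kinases and their regulators 5 rose and 1 fell (54.5%), with medians of 1.77 and 1.92. H2AFZ, 1 of the 10 rises, is also in the list of histones and chromatin, and its call did not hold. The filter kept these 14 of 18 spindle genes and 11 of 17 cyclin and kinase genes on the array. CENPF and NDC80, among the rises, passed it because of days 14 and 21. The shares thus cover only genes bright enough over all 12 arrays. A gene dim at birth passes that filter only through brighter signals at later ages, so the shares lean toward rises. CCNB2, dim in all newborn arrays, is such a gene, with geometric means of 38.8 at day 0 and 278 at day 7. HMGB2, a chromatin protein of dividing cells, had signals of 940, 734 and 895 at day 0 and 2817, 2348 and 2603 at day 7 (rose by 1.60 ± 0.18, adjusted p = 0.000982). STMN1, which loosens microtubules, went from 1327, 926 and 2185 to 7024, 5609 and 5869 (rose by 2.14 ± 0.28). NUSAP1, which bundles spindle microtubules, went from 95.2, 124 and 220 to 865, 684 and 698 (rose by 2.44 ± 0.30). CKS2, a cofactor of cyclin-dependent kinases, went from 296, 174 and 274 to 1066, 932 and 988 (rose by 2.04 ± 0.25). These 4 genes kept apart in every array, held, and passed with the spike covariate. TOP2A, which untangles chromosomes, went from 85.2, 62.5 and 405 to 1273, 830 and 1139 (rose by 3.04 ± 0.54, at least 7.14-fold, held), with N1 and N2 dim and N3 well above its fellows. The same array was high in CCNB1, the cyclin of mitosis, at 149 against 5.0 and 8.1, before 785, 483 and 571 at day 7 (at least 5.63-fold, held). CENPF, a kinetochore protein, was dim in all newborn arrays at 6.8, 18.6 and 71.0 and read 422, 348 and 244 at day 7 (at least 3.65-fold, held). CDKN3, a phosphatase of cyclin-dependent kinases, went the other way, from 4226, 3697 and 1295 to 741, 727 and 602 (fell by 1.99 ± 0.35, held).

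Replication itself gave 2 calls in 26 genes (7.69%, under the 11.7% of all genes). None of 9 licensing genes passed, though 8 were higher, at changes of -0.59 to 1.81. Their median of 0.23 turned to -0.08 on the control scale. With 1 array left out it ran from 0.25 to 1.03, and up to 1 of these genes rose. MCM3, a subunit of the replicative helicase, had the lowest p among them, with 47.3, 80.0 and 86.1 and then 198, 150 and 101 (1.06 ± 0.38, adjusted p = 0.101). Of 14 fork genes PCNA, the sliding clamp, rose by 0.81 ± 0.23, from 942, 869 and 1015 to 2069, 1444 and 1508. That call was lost on the control scale and in every fit but that without N3 (0.0721 to 0.153). RRM2, which makes deoxynucleotides, went from 58.3, 79.9 and 106 to 205, 227 and 324 (rose by 1.64 ± 0.38, at least 2.59-fold, dim in 2 newborn arrays), lost without N1, N2, W2 or W3 (0.0509 to 0.0809). Whether the licensing and mitotic lists changed by different amounts was not tested. PCLAF, a partner of PCNA among the 15 largest rises, went from 92.9, 79.3 and 449 to 1144, 717 and 1002 (rose by 2.65 ± 0.55, at least 6.02-fold, dim in 1 newborn array, held). In whole tissue, more cells of a dividing type and more of this RNA per cell cannot be told apart. The spindle count stayed between 9 and 10 whichever array was left out, and was 9 on the control scale and 6 with the spike covariate. The cyclin count was 3 without W1, W2 or W3 and 1 with the covariate.

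Of 21 genes of glycolysis 9 rose (42.9%) and 0 fell, and of 15 of glycogen use 6 rose (40%) and 0 fell, beside 11.7% of all genes called, with medians of 0.45 and 0.38 (0.14 and 0.08 on the control scale, where 2 and 1 fell). GPI, which turns glucose 6-phosphate into fructose 6-phosphate, went from 4320, 6268 and 13029 to 31240, 30908 and 27239 (rose by 2.07 ± 0.31, adjusted p = 0.00233). BPGM, the bisphosphoglycerate mutase, went from 453, 680 and 978 to 3244, 2624 and 2092 (rose by 1.96 ± 0.32). PGAM2, the muscle phosphoglycerate mutase, went from 21288, 16910 and 26349 to 47518, 41590 and 38694 (rose by 1 ± 0.17). LDHA, lactate dehydrogenase, went from 14088, 13878 and 33655 to 52073, 50742 and 44739 (rose by 1.39 ± 0.27). N3 was the highest newborn array in each, still below all of day 7, and the 4 calls held. Glycolysis calls numbered 2 with the spike covariate, GPI and BPGM, and 7 to 9 with 1 array left out.

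In the glycogen list PYGM, muscle glycogen phosphorylase, went from 13060, 13930 and 28133 to 47014, 41497 and 35998 (rose by 1.26 ± 0.24). PHKB, a subunit of the kinase that switches it on, went from 4736, 4258 and 5043 to 9819, 9297 and 10499 (rose by 1.08 ± 0.18). STBD1, which ties glycogen to membranes, went from 462, 1767 and 2453 to 5301, 5462 and 5120 (rose by 2.07 ± 0.43). The 3 calls held. None passed with the spike covariate (adjusted p 0.0568 to 0.114), where the changes were 1.01, 0.99 and 2.42. The glycogen count was 3 without W1 and 4 without N1, N2, W2 or W3. SLC37A4, the glucose 6-phosphate carrier of the endoplasmic reticulum, rose with them, from 272, 438 and 812 to 2939, 2419 and 1568 (2.28 ± 0.38, held).

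Of 6 genes of creatine and high-energy phosphate 3 rose (50%; GAMT, AMPD1 and CKB), at a median of 0.99, and of 9 genes of the glycerol phosphate and malate aspartate shuttles 2 rose (22.2%; GPD1 and GPD2) while 6 were lower, at a median of -0.02. Beside these stood 11.7% of all genes called. AMPD1 and ADSSL1, the second of which is in no list and is among the 15 largest rises, act in the purine nucleotide cycle of working muscle. AMPD1, AMP deaminase, went from 6765, 9570 and 9155 to 25043, 25587 and 18781 (rose by 1.45 ± 0.18, adjusted p = 0.000982). ADSSL1, the muscle adenylosuccinate synthetase, went from 2376, 1547 and 5718 to 16166, 16620 and 14922 (rose by 2.53 ± 0.37). GAMT, the last step of creatine synthesis, went from 245, 167 and 816 to 2694, 3626 and 2999, and GPD1, the cytosolic enzyme of the glycerol phosphate shuttle, from 1067, 1118 and 4640 to 10038, 10059 and 8067. All 4 kept their calls with any 1 array left out. CKB, the brain-type creatine kinase, rose by 1.93 ± 0.56 on overlapping arrays, 1 of them dim at day 0 (at least 3.75-fold). It read 1428 in W1 against 333 and 192, and was lost without N2, N3, W1 or W2 (0.0858 to 0.145) and on the control scale. GPD2, the mitochondrial enzyme of the shuttle, rose by 1.19 ± 0.28 (at least 2.14-fold, dim in 1 newborn array), lost on that scale and without N2, W1, W2 or W3 (0.0588 to 0.0725). CKM, the muscle creatine kinase, did not pass (0.24 ± 0.13, adjusted p = 0.283).

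Of 20 beta oxidation genes 3 fell and 0 rose (15%, beside 11.7% of all genes), 9 were higher and 11 lower, and the median was -0.05. ACADVL, which starts the oxidation of long fatty acids, went from 11065, 12162 and 15785 to 6896, 6308 and 6357 (fell by 0.98 ± 0.15, adjusted p = 0.00238), held and passed with the spike covariate. The count was 1 without N2, W1 or W2. HADHA, of the trifunctional protein, fell by 0.71 ± 0.16, lost without N2, W1 or W2 (0.0563 to 0.0641). ECI2 fell by 1.12 ± 0.33, and ACSL4, which activates fatty acids, by 0.69 ± 0.20, and both were lost without any 1 array (0.0563 to 0.188). Of 11 genes of fatty acid uptake ACSL4 was the 1 call (9.09%), and of 7 regulators 2 rose (28.6%). UCP3, a mitochondrial carrier of muscle, went from 309, 356 and 251 to 759, 676 and 698 (rose by 1.23 ± 0.25, held). ANGPTL4, a secreted inhibitor of lipoprotein lipase, went from 222, 561 and 240 to 876, 1168 and 904 (rose by 1.65 ± 0.34), lost without W2 (0.0539). OXCT1, the enzyme that lets muscle burn ketone bodies, was picked after its values were seen. It went from 547, 391 and 622 to 2526, 1712 and 1693 (rose by 1.93 ± 0.23, adjusted p = 0.000982), held and passed with the spike covariate.

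Of 51 sarcomere genes 6 rose and 2 fell (15.7%, beside 11.7% of all genes called). MYH2, the myosin of fast oxidative fibres, went from 5402, 6748 and 15661 to 51913, 49704 and 43922 (rose by 2.54 ± 0.28, held) and was the only call among 9 fast fibre genes (11.1%). TNNT3, the fast troponin T, was at 0.35 ± 0.14 (adjusted p = 0.137). Of 11 slow fibre genes 1 was called (9.09%). MYL2, the slow light chain, rose by 0.59 ± 0.17, lost on the control scale and in every fit but that without N3 (0.0738 to 0.167). TNNT1, the slow troponin T, went from 11080, 14186 and 15788 to 22374, 24161 and 18984 without passing (0.68 ± 0.23, adjusted p = 0.0835), and MYH7 overlapped (0.32 ± 0.19). The fast and slow medians of 0.28 and 0.29 became -0.03 and -0.02 on the control scale. TCAP, the titin cap of the Z disc, went from 16715, 17748 and 16413 to 6900, 7267 and 7064 (fell by 1.26 ± 0.17, adjusted p = 0.00136). Its arrays lay close together within each age, and the call held and passed with the spike covariate. CAPN3, a muscle protease bound to titin, and CAPZA2, which caps actin filaments, rose by 0.92 ± 0.22 and 0.65 ± 0.15. Both were lost on the control scale. CAPZA2 was also lost without W1 or W2 and CAPN3 without N2, W1 or W2 (0.0689 to 0.083 over both). A second probe set of CAPN3 was at -0.43, the opposite direction, and not called. TNNT2, the troponin T of heart and immature muscle, went from 91.0, 105 and 170 to 409, 1088 and 547 (rose by 2.41 ± 0.57), lost without N1, N2, W2 or W3 (0.0543 to 0.0905).

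Of 14 genes of calcium release and uptake 4 rose and 0 fell (28.6%, beside 11.7% of all genes), at a median of 0.37 (0.07 on the control scale, where 1 fell). CALM2, a calmodulin gene, went from 2820, 2906 and 4286 to 7601, 7696 and 7172 (rose by 1.19 ± 0.17). CAMK2G, a kinase that calmodulin activates, went from 539, 1010 and 1213 to 2670, 2365 and 2707 (rose by 1.56 ± 0.24). CACNA2D1, a subunit of the voltage sensor of the T tubule, went from 4576, 3096 and 7387 to 13992, 11448 and 11791 (rose by 1.39 ± 0.26). The 3 calls held, and those on CALM2 and CAMK2G passed with the spike covariate. ATP1B1, of the sodium pump, went from 17602, 21820 and 20852 to 12672, 13781 and 10534 (fell by 0.71 ± 0.15), lost without N2 or W3 (0.052 and 0.0646). Its other probe set was at -0.1 and not called. HOMER2, a scaffold of calcium signalling among the 15 largest falls, went from 7406, 12596 and 7291 to 2907, 3840 and 2250 (fell by 1.59 ± 0.28, held).

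Of 53 genes of growth signalling 2 rose and 2 fell (7.55%, under the 11.7% of all genes). MSTN, myostatin, the brake on muscle growth, was the 1 call among 20 genes of the TGF beta family, at 83.2, 17 and 166 and then 373, 626 and 512, dim in N1 and N2 (at least 4.45-fold), with a call lost without W2 (0.0511). IGF1 rose by 0.90 ± 0.24 among 11 genes of its axis, lost on the control scale and without N2, W1, W2 or W3 (0.0858 to 0.101). IGF2 (0.07 ± 0.19), MYOD1 (0.31 ± 0.26) and MYF6 (-0.09 ± 0.44) overlapped between the ages. Of 13 myogenic and satellite cell genes 1 was called (7.69%). MEF2A rose by 0.51 ± 0.15, lost on the same scale and in every fit but that without N2 (0.0639 to 0.160). RRAGA, which brings mTOR to lysosomes, fell by 0.53 ± 0.14, lost in every fit but that without N1 (0.0533 to 0.116). The imprinted RNA MEG3 fell by 0.94 ± 0.21, lost without N2, W2 or W3 (0.0527 to 0.0816).

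Of 14 endothelial markers 4 rose (CDH5, CLDN5, PECAM1 and ERG) and 1 fell (ENG), 35.7% called beside 11.7% of all genes. Of 9 markers of smooth muscle and pericytes 4 rose (RGS5, ACTA2, MCAM and CNN1) and 1 fell (55.6% called), DES, which muscle fibres also make (fell by 0.49 ± 0.14, lost in every fit but that without N1, 0.0701 to 0.15). The summed signal of the endothelial list was 10784 to 12972 at day 0 and 14943 to 16963 at day 7, and that of the mural list 36913 to 41911 and 46418 to 50286. The mural sum includes DES, which alone read 18781, 26528 and 23380 at day 0 and 16903, 16847 and 14919 at day 7. CDH5, the cadherin that joins endothelial cells, went from 1009, 784 and 688 to 2338, 2267 and 2031 (rose by 1.43 ± 0.23). PECAM1, another endothelial junction protein, went from 1748, 2198 and 2029 to 3204, 3790 and 4015 (rose by 0.88 ± 0.16). RGS5, typical of pericytes, went from 1531, 2102 and 1918 to 4153, 5372 and 6404 (rose by 1.51 ± 0.19, adjusted p = 0.00111). ACTA2, smooth muscle actin and also an actin of immature muscle, went from 7074, 5275 and 6888 to 12941, 13532 and 13567 (rose by 1.07 ± 0.18). These 4 calls held and kept on the control scale, and PECAM1 and RGS5 passed with the spike covariate. CLDN5 was lost without W2 (0.0526), ERG without W1, W2 or W3 (0.0518 to 0.0754), MCAM without N2, W1 or W3 (0.0562 to 0.0709), and CNN1 without N2, W1 or W2 (0.0765 to 0.0968). ERG and MCAM were also lost on the control scale. ENG, a TGF beta co-receptor, went from 948, 1255 and 818 to 600, 589 and 617 (fell by 0.72 ± 0.20), lost in every fit but that without N3 (0.0585 to 0.123). VWF, made by endothelium, overlapped (-0.17 ± 0.26).

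Of 16 genes of nitric oxide and angiogenesis 2 rose and 1 fell (18.8%), and of 55 matrix genes 6 rose and 2 fell (14.5%), beside 11.7% of all genes. ANGPT1, the pericyte ligand that steadies vessels, went from 48.8, 66.3 and 97.8 to 226, 344 and 244 (rose by 1.97 ± 0.30, at least 2.87-fold, held), with N1 and N2 dim. EDNRA, an endothelin receptor, rose by 0.93 ± 0.25, lost without N1, N2, W1 or W2 (0.0687 to 0.137) and on the control scale. DDAH1, which breaks down inhibitors of nitric oxide synthase, went from 2853, 4327 and 1958 to 870, 739 and 336 and held. COL15A1, a collagen of basement membranes around vessels and fibres, went from 1526, 1937 and 3889 to 9221, 7125 and 7795 (rose by 1.83 ± 0.27, adjusted p = 0.00233). It held and passed with the spike covariate, as did ANGPT1. Among the other 9 collagens COL6A2 fell by 1.28 ± 0.34, lost without N2, W1, W2 or W3 (0.0533 to 0.118). SPARCL1, a matrix glycoprotein, went from 4769, 5786 and 4243 to 7549, 8652 and 9416 (rose by 0.80 ± 0.15) and held, but was lost on the control scale. BMP1, which trims procollagen, went from 992, 1282 and 682 to 411, 417 and 492 (fell by 1.12 ± 0.23, held), while its other probe set was at 0.06 and not called. SNTB1 and SGCD, of the dystrophin complex, rose by 2.06 ± 0.47 and 1.62 ± 0.38. They were lost without N2, W1 or W2, and without W1, W2 or W3 (0.0563 to 0.0706 over both). ADAMTS1, a secreted protease, and PLAU, the urokinase, rose by 0.93 ± 0.25 and 0.93 ± 0.24, and both were lost on the control scale. ADAMTS1 was also lost in every fit but that without N1, and PLAU without N1, W1, W2 or W3 (0.0508 to 0.117 over both). None of 9 fibroblast markers passed.

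Of 76 genes of antigen presentation and interferon 13 rose and 1 fell (18.4%, beside 11.7% of all genes called). Of 7 measured MHC class II genes 4 rose (57.1%), with a median of 1.36 (1.06 on the control scale, where 3 rose and 1 fell). SLA-DRB1 went from 317, 385 and 435 to 1594, 997 and 1269 (rose by 1.75 ± 0.21, adjusted p = 0.000982), and SLA-DQA1 from 352, 537 and 623 to 1338, 1168 and 1280 (rose by 1.36 ± 0.23). Both held and passed with the spike covariate. SLA-DQB1 rose by 1.54 ± 0.37, lost without W1, W2 or W3 (0.0565 to 0.0777). The class II count was 3, 3 and 6 without N1, N2 and N3, and 2 without W1, W2 or W3. Of 8 class I genes 2 rose (25%), SLA-2 by 1.01 ± 0.26 and B2M, the common light chain, by 0.58 ± 0.17. Both were lost on the control scale and in every fit but that without N3 (0.0579 to 0.169). Of 9 tested probe sets of B2M 2 rose, and the 9 ran from -0.38 to 0.9. SLA genes are close relatives, so 1 probe set may pick up RNA from several of them. LAPTM5, a lysosomal protein of white cells, was the rise among 9 macrophage markers, from 158, 133 and 223 to 598, 472 and 414 (1.55 ± 0.32), lost without W1 (0.0571). The summed macrophage signal ran from 2346 to 3468 at day 0 and from 3430 to 5149 at day 7, and its part in the class II rise was not tested.

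The interferon-induced list was led by 1 array, W1. Of 25 genes 23 were higher and 4 rose (16%; IFI44L, IFIT1, IRF1 and EIF2AK2), at a median of 1.13. The list stood at 1.64 in W1 but at 0.13 and -0.12 in W2 and W3, against -0.73, -0.52 and -0.25 at day 0. IFI44L read 150, 286 and 197 at day 0 and 1651, 501 and 441 at day 7, and EIF2AK2, the kinase that senses double-stranded RNA, 366, 447 and 459 and then 2533, 886 and 760. IRF1, a transcription factor of the interferon response, read 195, 232 and 269 and then 678, 415 and 450. Without W1 the median was 0.45 and 0 were called. The count was also 0 without N1, 1 without N2 or W2, and 0 with the spike covariate. IRF1 and EIF2AK2 were also lost on the control scale. No lymphocyte marker but CCL5 passed, of 4 tested. Of 8 neutrophil markers the filter kept 1, S100A9, which was not called. It read 390, 114 and 58.6 at day 0 and 717, 138 and 10.9 at day 7, again highest in W1. The summed neutrophil signal was 290 to 669 at day 0 and 166 to 1683 at day 7. Its part in the interferon rises was not tested. Of 18 cytokine and chemokine genes with their receptors 3 rose (16.7%). CCL4, a chemokine of activated white cells, went from 141, 133 and 125 to 430, 345 and 626 (rose by 1.77 ± 0.23, adjusted p = 0.00134), held and passed with the spike covariate. CXCR4, the receptor of a homing chemokine, went from 285, 339 and 280 to 1063, 638 and 643 (rose by 1.34 ± 0.26, held). CCL5, dim in 5 of the 6 arrays and tested because of its signals at days 14 and 21, was lost without N2 or W2 (0.0584 and 0.0762).

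**Figure D4:**
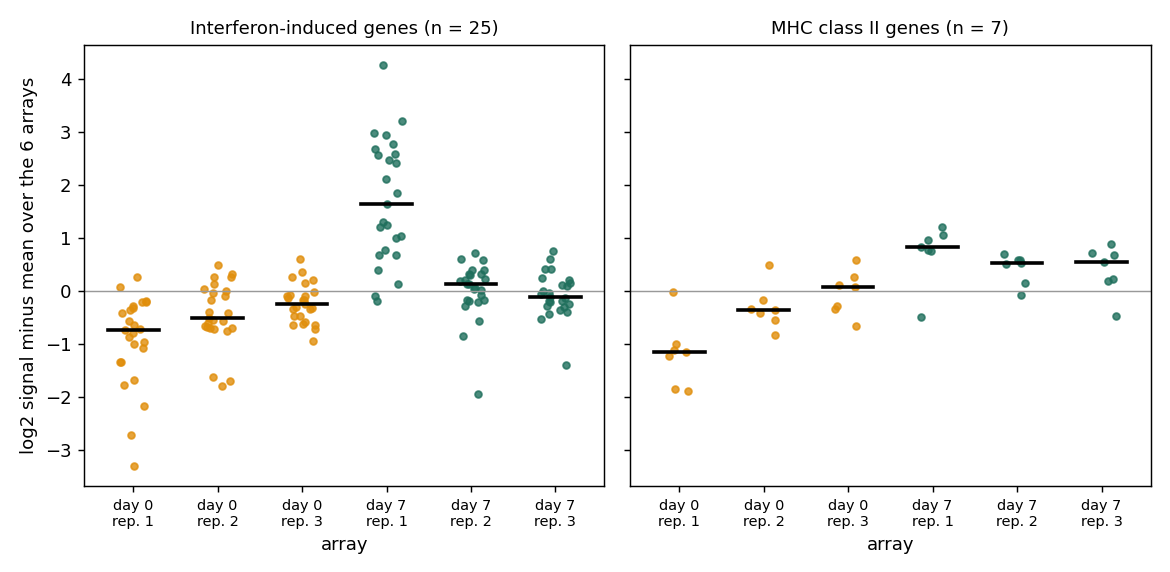
Log2 signal minus the gene's mean over the 6 arrays (y axis) for each interferon-induced gene (left, 25 genes) and MHC class II gene (right, 7 genes) in each array of day 0 (orange) and day 7 (green), with the array median as a black bar. The interferon genes are high in W1, at a median of 1.64 against 0.13 and -0.12, while the class II genes are higher in all 3 day 7 arrays, at 0.83, 0.53 and 0.55.

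Enzymes that clear aldehydes, steroids and oxidants gave scattered rises. Of 12 genes of drug and steroid metabolism 4 rose (33.3%; ALDH2, CYP27A1, ALDH1A1 and FMO1) and 0 fell, and over all 9 measured ALDH genes 4 rose (44.4%), beside 11.7% of all genes called. ALDH2, the mitochondrial acetaldehyde dehydrogenase, went from 1511, 1427 and 2016 to 7363, 5661 and 3462 (rose by 1.68 ± 0.29, adjusted p = 0.00523) and held. CYP27A1, a sterol hydroxylase, rose by 1.02 ± 0.23 and ALDH1A1, which makes retinoic acid, by 1.32 ± 0.32. CYP27A1 was lost without N2, W2 or W3 and ALDH1A1 without N2, N3, W1 or W3 (0.0512 to 0.1), and both on the control scale. Of the 4 calls, that on ALDH2 alone passed on that scale. The count was 1 without N2 or W3 and 2 without W1 or W2.

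Of 38 antioxidant genes 4 rose and 2 fell (15.8%, beside 11.7% of all genes), and on the control scale 2 and 6. Without W1, W2 or W3, 2 rose and 0 fell, and without N3, 6 and 4. SELENOW, a small selenoprotein of muscle, went from 1128, 1360 and 2137 to 6170, 3763 and 3797 (rose by 1.58 ± 0.26, held). NQO1, a quinone reductase, went from 636, 749 and 693 to 3760, 1753 and 1538 (rose by 1.65 ± 0.36), lost without W1 (0.0586). PRDX1, a peroxidase, fell by 0.95 ± 0.24, lost without N2, W1, W2 or W3 (0.0668 to 0.0905). Among 22 genes of amino acid synthesis and transport 3 rose (13.6%), and 1 without any of the arrays but N3. PSPH, the last step of serine synthesis, went from 323, 404 and 828 to 2766, 1627 and 2046 (rose by 2.14 ± 0.43, held). BCAT2 and BCKDHB, which break down branched amino acids, rose by 1.10 ± 0.29 and 0.94 ± 0.27, both lost on the control scale and in every fit but that without N3 (0.0613 to 0.155). Cholesterol synthesis did not separate the ages, since N3 stood at 0.77 in its 18 genes, above all of day 7 (0.20, 0.12 and -0.03), and the other newborn arrays at -0.42 and -0.36. FDPS, of that pathway, read 732, 785 and 2227 and then 2806, 2783 and 1846 (rose by 1.16 ± 0.34), lost on the control scale and in every fit but that without N3 (0.0606 to 0.156). TM7SF2, of the same pathway, rose by 1.25 ± 0.30, lost without N2, W1 or W2 (0.0726 to 0.0945), and SCAP, which escorts the sterol-regulated SREBP factors, fell by 0.91 ± 0.26, lost in every fit but that without N3 (0.0679 to 0.164). The list had 2 rises and 1 fall (16.7%), 6 rises without N3 and 0 without N2, W1 or W2. TFRC, the transferrin receptor, led 13 iron and haem genes without passing, at 1003, 98.3 and 1620 and then 2473, 2730 and 2724 (2.28 ± 0.71, adjusted p = 0.0615). HBB, beta globin, the 1 call among 3 erythroid markers, went from 2071, 1175 and 1036 to 688, 643 and 739 (fell by 0.98 ± 0.24), lost without W1, W2 or W3 (0.0559 to 0.0823).

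Of 56 calcineurin, early and stress genes 6 rose and 1 fell (12.5%, about the 11.7% of all genes). Of 18 hypoxia response genes 3 rose (16.7%), LDHA, ANKRD37 and EPAS1. ANKRD37, an ankyrin repeat protein, had the largest log2 rise of the genes named, 5.38, but was dim in all newborn arrays at 12.3, 3.4 and 5.5, so that its 242, 198 and 350 at day 7 give a rise of at least 2.83-fold, which held and passed with the spike covariate. EPAS1, a hypoxia-inducible transcription factor, rose by 1.09 ± 0.28, lost without N2, W1, W2 or W3 (0.06 to 0.107) and on the control scale. Of 13 glucocorticoid response genes 2 rose and 1 fell (23.1%). NR3C1, the glucocorticoid receptor, rose by 0.89 ± 0.25, lost without N2, W1, W2 or W3 (0.0611 to 0.144) and on the control scale. Of 23 immediate early genes 1 rose and 1 fell (8.7%). DUSP6, a phosphatase of MAP kinases, rose by 0.63 ± 0.17, lost without any 1 array (0.0515 to 0.125) and on the control scale. None of 4 calcineurin genes passed, with PPP3CA nearest (0.56 ± 0.22, adjusted p = 0.124). Of 27 genes of histones and chromatin 3 rose (11.1%), HIST1H2BD by 0.96 ± 0.21, H2AFZ by 0.71 ± 0.19 and SMARCA5, a nucleosome remodeller, by 0.98 ± 0.26. All 3 were lost on the control scale, HIST1H2BD also without N2 or W2, H2AFZ in every fit but that without N3 and SMARCA5 in every fit but that without N1 (0.0519 to 0.12 over the 3 genes).

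The remaining named genes include some of the largest changes, in lists or outside them. LXN, latexin, an inhibitor of carboxypeptidases, went from 232, 617 and 472 to 3205, 2642 and 3214 (rose by 2.88 ± 0.41). SLPI, a secreted protease inhibitor, went from 538, 468 and 187 to 2607, 2058 and 1896 (rose by 2.58 ± 0.43), and C4H1orf54 from 58.3, 114 and 93.5 to 981, 1104 and 995 (rose by 3.58 ± 0.34, adjusted p = 0.000438), at least 10.4-fold with 1 newborn array dim. The 3 genes were several-fold higher in every day 7 array, held and passed with the spike covariate. SMAGP, a small membrane protein, was dim in all newborn arrays at 17.2, 15.3 and 19.4 and read 240, 235 and 170 at day 7 (at least 2.35-fold), a call that held and passed with the spike covariate. Of 25 transporter genes 3 rose (12%). AQP3, a channel for water and glycerol, went from 297, 77.3 and 81.4 to 1215, 986 and 603 (rose by 2.86 ± 0.48, at least 6.68-fold, held), with N2 and N3 dim. SLC2A3, a glucose transporter, rose by 1.12 ± 0.29, lost in every fit but that without W1 (0.0556 to 0.12) and on the control scale. MYO5B, a motor of vesicle recycling, went from 767, 644 and 426 to 145, 99.7 and 136 (fell by 2.25 ± 0.31, adjusted p = 0.00159), held and passed with the spike covariate. Also among the falls NME1, a nucleoside diphosphate kinase, went from 3138, 2204 and 1517 to 476, 751 and 574 (fell by 1.89 ± 0.28, held). CST6, a cystatin that blocks lysosomal proteases, went from 956, 869 and 773 to 393, 279 and 183 (fell by 1.67 ± 0.31, held). CEBPD, a transcription factor of acute stress, went from 6794, 6304 and 3156 to 1002, 2096 and 2455 (fell by 1.57 ± 0.45), lost in every fit but that without N3 (0.0614 to 0.170). It was the fall in both the immediate early and the glucocorticoid response lists. NPM3, a nucleolar chaperone, fell by 1.62 ± 0.44, lost without N1, W1, W2 or W3 (0.0749 to 0.107). RANGAP1, which drives nuclear transport, and TRIP10 fell by 1.79 ± 0.42 and 1.93 ± 0.51, at least 2.84-fold and 2.8-fold, each dim in 1 later array. RANGAP1 was lost without N1, N2 or W1 and TRIP10 in every fit but that without W1 (0.0532 to 0.124 over both). CFB, complement factor B, went from 180, 298 and 227 to 81.3, 68.3 and 46.8, dim in all 3 later arrays (at least 2.55-fold lower), and was lost without any 1 array (0.0541 to 0.119). It was the 1 call among 18 complement and acute phase genes (5.56%, under the 11.7% of all genes).

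The later ages are given as geometric means with no test. HMGB2 and CKS2 read less at day 14 than in any day 7 array, at 1209 (day 7 arrays 2348 to 2817) and 549 (932 to 1066), and stood at 1394 and 581 at day 21. AQP3 and PCLAF likewise stood at 327 and 278 at day 14. UTP11, PSMD3 and HSPA9 read 1258, 1321 and 7255 at day 14, all below every day 0 array. GPI, PYGM and MYH2 stood at 28374, 43049 and 52284, all above every day 0 array. TCAP was at 10483 at day 14 and 12120 at day 21, between its day 7 and day 0 arrays.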

How the data were processed

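Pig skeletal muscle RNA was hybridized to Affymetrix arrays, 1 per sample. The authors deposited a table of linear signal intensities, per the file headers, and made them with MAS5, per the submitters' processing notes. Each array's trimmed mean (2% cut at each end) came out at the same value when checked. The table gives no detection calls, so "dim" below means under the filter limit of 90.3. Here log2 of the deposited intensity was used. Control probe sets (124 of 24123) were left out, then the 40% with the lowest mean log2 signal, which left 14399. limma 3.58.1 in R 4.3.3 fitted a mean per age over all 12 arrays (8 residual degrees of freedom, moderated with a mean-variance trend), tested day 7 minus day 0, and adjusted p with the Benjamini-Hochberg method over all 14399 probe sets at a threshold of 0.05. Genes were named through the platform annotation, from probe sets with 1 symbol, and where several probe sets of a gene were tested, the brightest on average stands for it.

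The comparison, the 72 gene lists by function and the 14 marker lists were chosen with earlier results of these data known. Named genes are for each list, its 3 calls of lowest p (with no call, the gene of lowest p), the 15 largest rises and falls without overlap by the change of log2(signal + 29.7), where 29.7 is the 20th percentile of all signals (symbols that start with LOC left out), and a fixed group of muscle genes. Called marker genes are named as well. Alternatives were other filters, quantile normalization, scaling on the hybridization controls, an offset of 29.7, no trend, array weights, the 6 arrays alone, the replicate number as a block, the spike ratio as a covariate, averaging the probe sets of a gene, and leaving out each array. Single values over 3 against 3 arrays had exact permutation tests. Figures were drawn with matplotlib 3.10.9. A planned search for promoter motifs was not run, and no sequence is printed.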

Additional observations from a re-analysis of the deposited data

How the results depend on the processing

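The 1353 called probe sets (829 higher, 524 lower) stayed within 1.5 times in number, in both directions, with no filter, the stricter filter, quantile normalization, the offset, no variance trend and the replicate block (1023 called, 657 higher and 366 lower). The deviations of same-numbered arrays correlated at -0.01, 0.11 and 0.1, and those of differently numbered arrays at -0.12 to 0.02. With 3 arrays per age these values cannot show whether the replicate numbers pair the samples. On the hybridization control scale 358 were higher and 1636 lower, and with array weights 349 were lower. The 6 arrays alone gave 477 calls (319 higher, 158 lower), where fewer samples inform the spread. The spike ratio as a covariate gave 229 (171 higher, 58 lower), a fit in which age and ratio overlap, since all day 7 arrays had the lower ratios. Leaving out 1 array gave 493 to 1669 calls, 321 to 1014 higher and 172 to 655 lower.

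Among the 175 named genes, 3 changed sign under some alternative, none of them called: CKM (0.24) was -0.07 on the hybridization control scale, IGF2 (0.07) was -0.24 there and 0 with array weights, and MYF6 (-0.09) was 0.04 with array weights. With 1 array left out IGF2 ran from -0.12 to 0.16 and MYF6 from -0.49 to 0.4. The cause of these shifts was not tested. The 3 arrays per age limit what can be called, and signals under the filter limit give only a bound on a fold.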
